A study of Mus musculus with 2 samples.

Results

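The antiviral interferon effector genes are those whose products act directly on viruses or on viral RNA once interferon has been sensed. They were taken as 40 genes named by symbol, and all 40 had a row among the 23562 gene symbols of the deposited table. RNA of a mouse mammary tumour cell line, which the labels call AS0574, had been sequenced in 2 libraries. The library titled LL3 came from cells of genotype Rnf8-/-;Trp53Δ/Δ, called Rnf8-null here. The library titled LL3WT is labelled as the same line complemented with Rnf8, so by the labels both libraries lacked intact Trp53 and neither had its own Rnf8. Rnf8 encodes a ubiquitin ligase of the DNA break response, and Trp53 encodes p53. Each form had 1 library of 1 cell line, so the spread between cultures is unknown and no test between the forms was possible. The sources used here do not give the strain, the passage, how Rnf8 was added or whether either form was a single clone.

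Interferons are secreted proteins that bind surface receptors, and the receptors activate Janus kinases, which phosphorylate STAT proteins. With Irf9 these form a complex that binds a short response element in the promoters of effector genes. The effectors then degrade viral RNA, block its translation, stop virus entry or release, or attach ubiquitin-like and ADP-ribose tags to proteins. Some tumour cells carry a standing level of this programme without infection.

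The libraries held 57263401 counted reads (Rnf8-null) and 48607808 (Rnf8-complemented). Levels are RPKM, in which reads are divided by gene length and by the counted reads of the library, and intervals are exact 95% limits that cover counting error only. Rnf8 itself was read at 10.5 RPKM without and 596 RPKM with its complementation, so the library labelled as complemented held the higher level. Rnf8 reads were not absent from the Rnf8-null library. They numbered 1224 there, and the median of genes with at least 1 RPKM in that library was 10.8 RPKM. Trp53 had 1075 reads against 696. Counts per gene do not show whether such transcripts are intact. All 6 mammary epithelial markers were higher in the Rnf8-null library, with a summed level of 3515 RPKM against 0.968, and all 4 fibroblast markers past a mean of 1 RPKM were lower, with the 8 listed markers summing to 1.68 against 196 RPKM. Epithelial markers were therefore nearly absent from the Rnf8-complemented library of a line labelled as mammary tumour. Krt18, a keratin, stood at 1762 against 0.294 RPKM. Col3a1, a collagen, stood at 0.0342 against 140 RPKM and Pdgfrb at 0.0389 against 46.6 RPKM, and these made up most of the fibroblast sum. The next fibroblast marker in the Rnf8-complemented library, Col1a1, stood at 4.42 RPKM there. Pdgfra, below a mean of 1 RPKM, went the other way with 54 reads against 27. Whether the libraries are forms of 1 line, as labelled, could not be checked from gene counts, and Rnf8-null and Rnf8-complemented are used below as the labels' names. Of 19 leukocyte markers in the table, 3 were higher in the Rnf8-null library, namely Cd14, S100a8 and S100a9, and the summed level was 369 against 44.8 RPKM. Cd68, at 16.7 against 9.33 RPKM, and Fcer1g, at 2.02 against 3.56 RPKM, also passed a mean of 1 RPKM and lay within 2-fold. Of those below it, Csf1r had 292 reads against 100 and Lyz2 3 against 75. The pan-leukocyte gene Ptprc had 0 reads against 1, Cd3e 1 against 0, and Itgam 2 against 2. The 5 endothelial markers summed to 0.296 against 0.783 RPKM. In bulk RNA, fewer cells of a type and less RNA per cell cannot be told apart, and the part of the epithelial and fibroblast differences in the antiviral values was not tested.

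Most antiviral effectors were higher in the Rnf8-null library, but 10 of them lay within 2-fold. A gene was counted when its mean over the libraries was at least 1 RPKM, and called when log2(RPKM + 1) differed by at least 1. That is 2-fold in RPKM + 1 and somewhat more than 2-fold in RPKM. For the members, within 2-fold refers to this scale, so it takes in Adar (2.03-fold higher in RPKM) and Parp12 (2.04-fold lower). Of the 40 members, 27 were called higher in the Rnf8-null library, 1 was called lower (Ifitm3), 10 lay within 2-fold and 2, Ifitm1 and Phf11b, were below the filter. Among all 12609 genes past the filter, 14.8% were called higher and 15.9% lower. The median difference was 3.01 over all 40 members on the log2(RPKM + 1) scale and -0.17 over the genes past the filter. Of the 38 members past the filter, 21 had under 1 RPKM in the Rnf8-complemented library and so passed only through their level in the Rnf8-null library, which favours a call. Among the 17 members with at least 1 RPKM in the Rnf8-complemented library, a division chosen after the values were seen, 6 were called higher and 1 lower. The share of such genes over the whole table was 8.58% higher and 17.3% lower.

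The members took 236383 reads, or 0.413% of the counts, in the Rnf8-null library and 42374 reads, or 0.0872%, in the Rnf8-complemented library. The genes that made up this level differed. In the Rnf8-null library Bst2 and Isg15 made up 48.8% of the members' summed RPKM, and in the Rnf8-complemented library Ifitm2 and Ifitm3 made up 77.1%. Those last were the only members, besides Ifitm1, Parp12, Herc6 and Samhd1, with a lower RPKM in the Rnf8-null library, and the other 34 had a higher one.

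**Figure D1:**
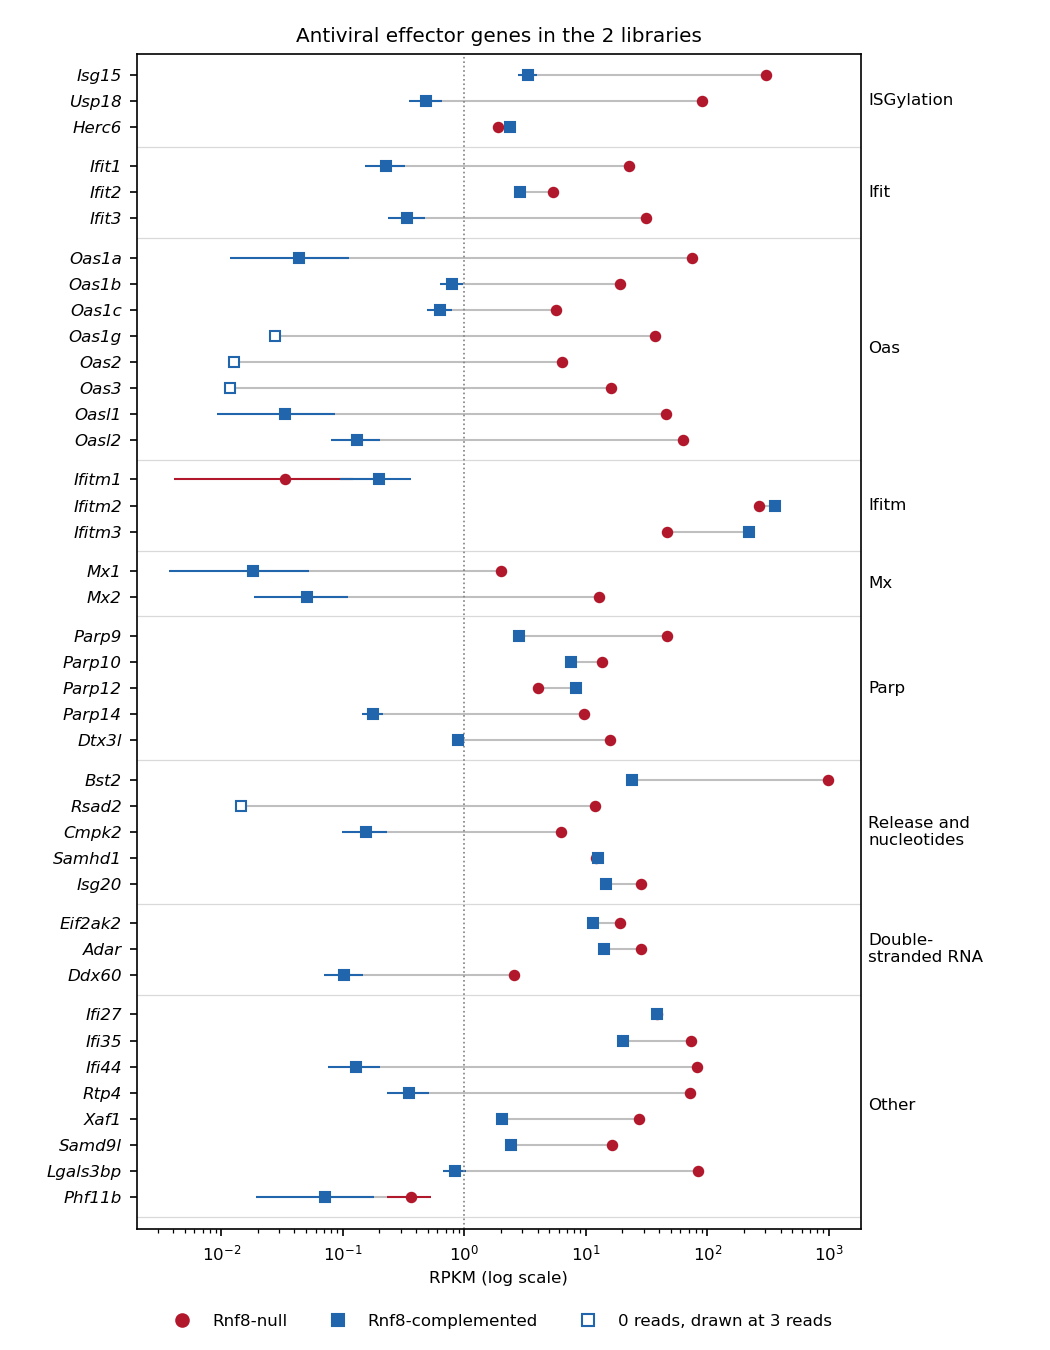
RPKM (log axis) of the 40 members in the Rnf8-null (circles) and Rnf8-complemented (squares) libraries, grouped by effector class, with exact 95% Poisson intervals. Open squares mark 4 members with 0 reads, drawn at the level of 3 reads, and the dotted line marks 1 RPKM. Most Oas genes lie far apart between the libraries, while Ifitm2, Samhd1, Herc6 and Ifi27 lie close together.

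The 2′,5′-oligoadenylate synthetases (Oas genes) sense double-stranded RNA and make a nucleotide second messenger. All 8 were called higher in the Rnf8-null library, against 14.8% of all genes past the filter. None reached 1 RPKM in the Rnf8-complemented library. All 8 thus passed the filter only through their level in the Rnf8-null library, which favours a call. Oas1a (chromosome 5, 120896256 to 120907521 of GRCm38) stood at 75.2 RPKM (interval 73.6 to 76.9) in the Rnf8-null library against 0.0436 RPKM (0.0119 to 0.112). Oasl2 stood at 63.0 against 0.131 RPKM and Oasl1 at 45.6 against 0.0336 RPKM, and both encode Oas-like proteins with ubiquitin-like domains. These levels put them in the upper part of the Rnf8-null library, where 88.9% of genes with at least 1 RPKM lay below Oasl2.

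Oas1g, Oas2 and Oas3 had 0 reads in the Rnf8-complemented library. In the other library 4742 reads fell on Oas1g, 4774 on Oas3 and 1757 on Oas2. Against a floor of 3 reads in the Rnf8-complemented library, that made Oas1g at least 1342-fold, Oas3 at least 1351-fold and Oas2 at least 497-fold more abundant in the other. The ratio was 1726 for Oas1a (interval 674 to 6336), 1357 for Oasl1 (530 to 4982) and 480 for Oasl2 (311 to 786).

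The remaining Oas genes differed less. Oas1b, annotated as a polymorphic pseudogene because laboratory mice often carry a stop codon in it, stood at 19.0 against 0.787 RPKM, 24.1-fold higher (interval 19.5 to 30.1). Oas1c stood at 5.64 against 0.630 RPKM, 8.95-fold higher (interval 6.997 to 11.6), the least of the class. Both kept 70 or more reads in the Rnf8-complemented library, unlike the other Oas genes, which had at most 20. By level in the Rnf8-null library the order was Oas1a, Oasl2, Oasl1, Oas1g, Oas1b, Oas3, Oas2 and Oas1c, and only the intervals of Oas2 (6.05 to 6.64 RPKM) and Oas1c (5.24 to 6.06 RPKM) overlapped. Of the related genes that are no members, Oas1h had 99 reads against 0, Oas1e 11 against 1, Oas1f 4 against 4 and Oas1d 2 against 0.

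The ISGylation genes attach, remove and carry the ubiquitin-like modifier ISG15. Isg15 (chromosome 4, 156199424 to 156200818), the modifier itself, stood at 302 RPKM (interval 297 to 308) in the Rnf8-null library and 3.32 RPKM (2.76 to 3.96) in the Rnf8-complemented one. Usp18, the protease that removes ISG15 and also restrains the interferon receptor, stood at 89.9 against 0.488 RPKM, 184-fold higher (interval 136 to 256). Herc6, the ligase that joins ISG15 to its targets in mouse, stood at 1.88 RPKM (1.74 to 2.03) against 2.36 (2.19 to 2.54), a ratio of 0.795 (0.714 to 0.886). The modifier and its protease were thus far apart between the libraries and the ligase was not. Of the other enzymes of the route, Uba7, the activating enzyme, stood at 2.48 against 0.342 RPKM (7.26-fold), and Ube2l6, the conjugating enzyme, at 60.5 against 45.2 RPKM (1.34-fold). Trim25, a ubiquitin ligase that also acts on the RNA sensor RIG-I, stood at 36.0 against 12.5 RPKM (2.87-fold).

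Ifit proteins bind viral RNA ends and hold back translation. Ifit3 (chromosome 19, 34583531 to 34588731) stood at 31.4 RPKM (interval 30.4 to 32.4) against 0.340 (0.234 to 0.477), 92.3-fold higher in the Rnf8-null library. Ifit1 (34640871 to 34650009) stood at 22.8 RPKM (22.005 to 23.5) against 0.226 (0.151 to 0.325), 101-fold higher. Ifit2 (34550694 to 34576419), the third gene of this cluster, stood at 5.41 against 2.84 RPKM, 1.90-fold higher (interval 1.72 to 2.11) and within the 2-fold limit. Neighbouring genes of the cluster therefore differed by very unequal amounts. Ifit2 was the lowest of the 3 in the Rnf8-null library and the highest in the Rnf8-complemented library.

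The Ifitm proteins sit in membranes and block the fusion of entering viruses. Of their 3 genes, Ifitm3 was called lower in the Rnf8-null library, Ifitm2 lay within 2-fold and Ifitm1 was below the filter. Ifitm3 (chromosome 7, 141009586 to 141010770) had 1713 reads against 6945. Its level was 46.2 RPKM (interval 44.0 to 48.4) against 220 (215 to 226), 4.78-fold lower in the Rnf8-null library (4.53 to 5.04). Ifitm2 was abundant in both libraries, at 268 RPKM (262 to 273) against 361 (354 to 368), a 1.35-fold lower level. Ifitm1 had 2 reads against 10, with a ratio of 0.170 (interval 0.0181 to 0.797), and was not readable above the filter in either library. The family members Ifitm5 and Ifitm10, which are no members here, stood at 1.40 against 1.91 and 0.528 against 1.42 RPKM. No Ifitm gene past the filter had a higher level in the Rnf8-null library.

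The Mx genes encode dynamin-like GTPases that trap viral nucleocapsids. Mx2 (chromosome 16, 97535308 to 97560900) had 1785 reads against 6, 12.9 against 0.0510 RPKM, which was 253-fold higher (interval 116 to 689). Mx1 had 393 against 3 reads, 2.02 against 0.0181 RPKM, a ratio of 111 (interval 37.8 to 542). Mx1 was thus low even in the Rnf8-null library, where only 9.97% of genes with at least 1 RPKM stood lower. Mx2 is annotated as a polymorphic pseudogene, and many laboratory strains are known to carry defective Mx genes.

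The interferon-induced Parp genes encode ADP-ribosyltransferases, and Dtx3l encodes a ubiquitin ligase that works as a pair with Parp9. Parp9 (chromosome 16, 35938470 to 35972605) stood at 46.6 against 2.81 RPKM, 16.6-fold higher in the Rnf8-null library (interval 15.3 to 18.1). Dtx3l (35926511 to 35939151) lies head to head with it and overlaps it, and stood at 15.7 against 0.881 RPKM, 17.8-fold higher (15.9 to 20.1). The intervals of these ratios overlapped. Parp14, from the same chromosome region, stood at 9.59 against 0.178 RPKM, 54.0-fold higher (interval 44.4 to 66.2).

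Parp10 and Parp12 from other chromosomes did not follow. Parp10 stood at 13.5 against 7.54 RPKM, 1.797-fold higher (interval 1.69 to 1.91). Parp12, a zinc-finger member known to restrain RNA viruses, stood at 4.06 against 8.28 RPKM, 2.04-fold lower (1.87 to 2.24), which is within the 2-fold limit on the log2(RPKM + 1) scale (-0.88). Of 9 further Parp family genes that are no members, 8 passed the filter, with 2 called higher (Parp16 and Parp6) and 3 lower (Parp3, Parp8 and Parp1, the main DNA break sensor). Over all genes past the filter, 14.8% were called higher and 15.9% lower. Parp1 stood at 23.9 against 61.6 RPKM and Parp3 at 10.7 against 40.9 RPKM. The family as a whole had no common direction.

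**Figure D2:**
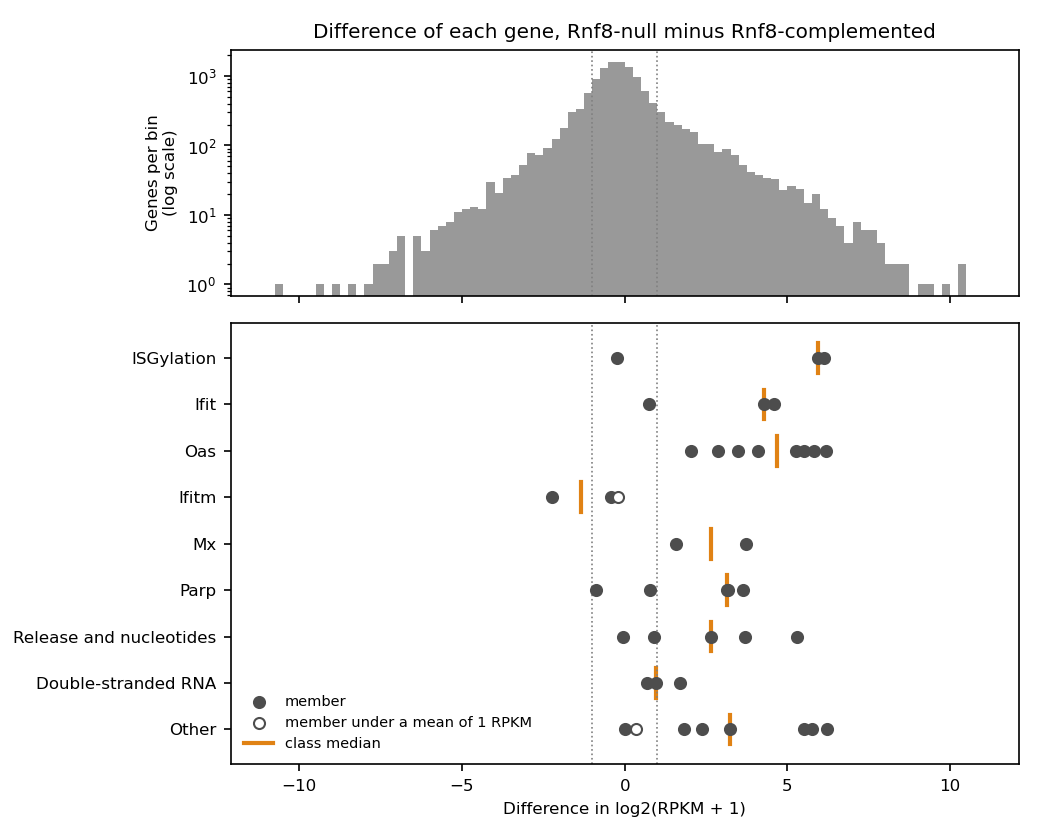
Upper panel, number of genes (log axis) by difference in log2(RPKM + 1), Rnf8-null minus Rnf8-complemented, for the 12609 genes past the filter. Lower panel, the members by effector class on the same axis, with class medians as bars and members below the filter as open circles. The Oas members run from 2.03 to 6.19, and the Ifitm members lie left of 0.

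Genes acting on virus release and on nucleotides divided into Samhd1 and Isg20, which lay within 2-fold, and 3 that were higher in the Rnf8-null library. Bst2 (chromosome 8, 71534255 to 71537456), or tetherin, holds budding virus at the cell surface and was the most abundant member in the Rnf8-null library at 975 RPKM (interval 965 to 984). In the Rnf8-complemented library it stood at 24.1 RPKM (22.6 to 25.7), 40.4-fold lower, yet still above 70.7% of the genes with at least 1 RPKM there. Rsad2, which encodes viperin, an enzyme that makes a chain-terminating nucleotide, had 2891 reads against 0, at least 818-fold more in the Rnf8-null library over the 3-read floor. Cmpk2, its neighbour on chromosome 12 and a nucleotide kinase, stood at 6.20 against 0.155 RPKM, 40.04-fold higher (interval 26.8 to 62.8).

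Samhd1 breaks down deoxynucleotides and Isg20 is an RNA exonuclease. Samhd1 stood at 12.1 RPKM (interval 11.8 to 12.4) against 12.6 (12.3 to 12.97), a ratio of 0.961 (0.925 to 0.997). Isg20 stood at 28.5 against 14.8 RPKM, 1.93-fold higher (1.81 to 2.05). With TMM scaling, which adjusts for a shift in a few abundant genes, Isg20 differed by 1.12 on the log2(RPKM + 1) scale and would be called higher.

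Of the sensors and editors of double-stranded RNA, Adar and Eif2ak2 were moderate in both libraries and Ddx60 was low in both. Adar, which edits adenosine to inosine in double-stranded RNA, stood at 28.7 against 14.1 RPKM, 2.03-fold higher (interval 1.96 to 2.10), with a log2(RPKM + 1) difference of 0.97, just under the limit, and of 1.19 with TMM scaling. Eif2ak2, which encodes PKR, the kinase that shuts down translation, stood at 19.0 against 11.5 RPKM, 1.65-fold higher (1.57 to 1.73). Ddx60, a helicase linked to RNA sensing, stood at 2.58 against 0.103 RPKM, 25.2-fold higher (17.6 to 37.3).

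The remaining 8 members have less settled antiviral roles. Ifi44 had 13767 reads against 18, and its log2(RPKM + 1) difference of 6.21 was the largest of the 40 members, next to 6.19 for Oas1a. This order held at a pseudocount of 1 RPKM, while Oas1a led at 0.1 RPKM (9.04 against 8.51 for Ifi44) and Isg15 and Bst2 both exceeded Ifi44 at 5 RPKM (5.21 and 5.07 against 4.10). Rtp4, known to restrain flaviviruses, stood at 71.8 against 0.353 RPKM (203-fold, interval 140 to 309), and Lgals3bp, a secreted glycoprotein, at 82.9 against 0.835 RPKM (99.3-fold, 80.5 to 124). Xaf1, a partner of the apoptosis inhibitor Xiap, stood at 27.3 against 2.02 RPKM (13.5-fold, 12.3 to 14.8). Samd9l stood at 16.5 against 2.398 RPKM (6.88-fold, 6.33 to 7.49). Ifi35 stood at 73.2 against 20.0 RPKM (3.66-fold, 3.44 to 3.88).

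Ifi27 did not differ beyond counting error, at 38.5 RPKM (interval 37.0 to 40.1) against 38.4 (36.8 to 40.1), a ratio of 1.003 (0.946 to 1.06). Its relative Ifi27l2a, which is no member, stood at 392 against 27.2 RPKM, 14.4-fold higher (interval 13.6 to 15.3). Phf11b had 24 reads against 4, a ratio of 5.09 (1.75 to 20.2), below the filter. Its relative Phf11d stood at 2.24 against 0.0246 RPKM, from 428 and 4 reads.

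Related genes can share reads, and how far they could was measured on the transcripts of GENCODE vM21 (GRCm38). Every 50-base and 100-base window of each member's transcripts was looked for in the transcripts of all other genes on both strands. Of the 40 members, 11 had at least 10% of their 50-base windows in another gene. Oas1a shared 57.6% of its windows with Oas1g and Oas1g 45.2% of its own with Oas1a, so their separate levels are uncertain. Oas2 and Oasl1 had no shared window, and those of Oas3 and Oasl2 came to 0.521% and 0.138%.

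For Ifit3 the share was 51.2%, all with Ifit3b, which had no row in the deposited table, while Ifit2 shared none. Ifitm2 shared 48.5% of its windows, mostly with Gm45717, a gene model that overlaps it, and Ifitm3 10.02%. Phf11b shared 47.0% with its relatives and others. Of Adar's windows 14.4% lay in Chrnb2 on the other strand, and Parp9 and Dtx3l overlap over 458 exon bases on opposite strands. The sources used here do not say whether the authors counted by strand. Leaving out the 11 members, 21 of 28 were called higher and 0 lower, since Ifitm3 is among those left out.

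**Figure D3:**
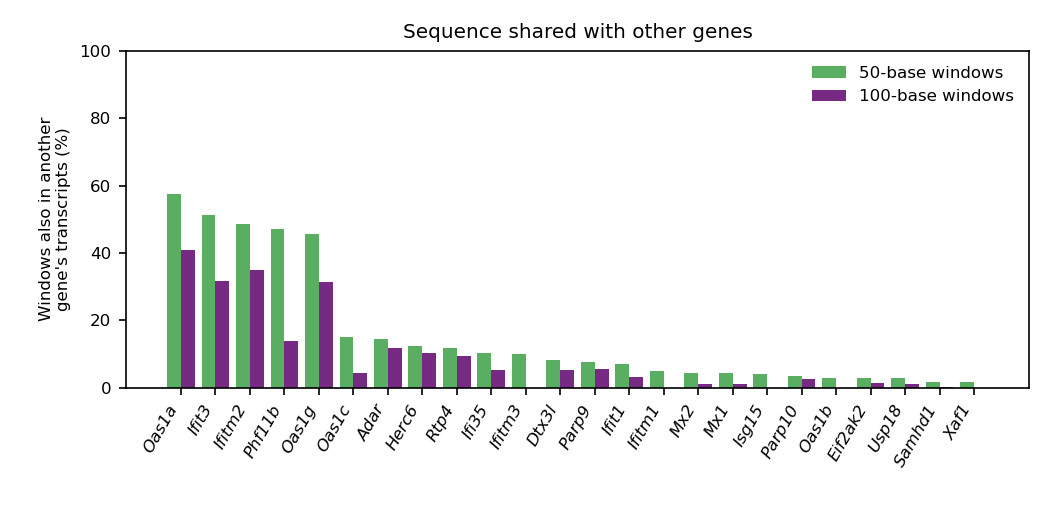
Percent of each member's 50-base (green) and 100-base (purple) transcript windows that also occur in transcripts of another gene, for members with at least 1% at 50 bases. Oas1a, Ifit3, Ifitm2, Phf11b and Oas1g stand above 40% at 50 bases, and all other members lie under 16%.

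The promoters were searched for the core of the interferon-stimulated response element, the site of the STAT and Irf9 complex, since most of the members lay higher together. RefSeq promoters of GRCm38.p6, running from 250 bases before to 50 bases after the start of the gene, were found for 30 of the 40 members. The core was written as GAAA, NN and GAAA in a row, searched on both strands, and matches may overlap one another. It was present in promoters of 14 of the 30 members, or 46.7%, and of 3.99% of the 27025 genes with a promoter. Of the 32851 single promoters, 1131, or 3.44%, held the core. Among the 9027 genes past the filter that had a promoter, 3.57% held it. The core of the gamma-activated site, the target of STAT pairs, was written TTCNNNGAA. It reads the same on both strands and may overlap the first motif. It was present for 9 of 30 members (30.0%), for 9.55% of all genes with a promoter and in 8.30% of single promoters. The members are known interferon targets, so the shares describe the list and are no test.

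The 150 bases before the start of the gene are given 5′ to 3′ on the gene's strand. They are shown for the member of each class whose match lay nearest the start, and for Ifitm2. Ifitm2 was added after its values were seen because the match of Ifitm3 lies past its start. Parp9, Parp10, Parp14, Mx1 and Mx2 had no promoter to search, so the Mx class is missing here. Parp12 and Dtx3l were searched and held no match. Capitals mark the core matches.
Isg15: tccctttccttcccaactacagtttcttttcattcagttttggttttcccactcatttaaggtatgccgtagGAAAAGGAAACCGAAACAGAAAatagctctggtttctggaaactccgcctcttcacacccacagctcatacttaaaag
Ifit1: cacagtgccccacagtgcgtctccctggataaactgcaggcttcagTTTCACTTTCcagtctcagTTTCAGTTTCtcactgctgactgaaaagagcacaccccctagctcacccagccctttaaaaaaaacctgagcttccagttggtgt
Oas1g: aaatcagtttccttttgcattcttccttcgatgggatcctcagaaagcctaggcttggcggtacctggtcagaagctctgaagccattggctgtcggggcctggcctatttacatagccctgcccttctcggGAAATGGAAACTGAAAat
Rsad2: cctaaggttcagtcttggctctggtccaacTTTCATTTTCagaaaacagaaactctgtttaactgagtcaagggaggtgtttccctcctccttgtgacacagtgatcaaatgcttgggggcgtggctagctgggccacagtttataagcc
Ddx60: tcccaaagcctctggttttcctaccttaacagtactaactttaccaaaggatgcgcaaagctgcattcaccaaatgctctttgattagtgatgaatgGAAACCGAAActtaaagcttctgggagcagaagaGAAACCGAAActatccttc
Phf11b: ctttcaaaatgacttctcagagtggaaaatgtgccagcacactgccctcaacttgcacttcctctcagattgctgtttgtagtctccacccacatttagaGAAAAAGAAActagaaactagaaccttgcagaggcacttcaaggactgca
Ifitm2: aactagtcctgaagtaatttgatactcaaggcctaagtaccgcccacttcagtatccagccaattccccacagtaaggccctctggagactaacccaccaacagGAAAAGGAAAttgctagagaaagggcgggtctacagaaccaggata
In Isg15 3 matches overlapped in 1 run, ending 56 bases before the start. In Ifit1 the matches lay on the other strand, and in Oas1g they ended 2 bases before the start. The printed stretches lie at chr4:156200819-156200968 (minus strand, Isg15), chr19:34640739-34640888 (plus strand, Ifit1), chr5:120887614-120887763 (minus strand, Oas1g), chr12:26456453-26456602 (minus strand, Rsad2), chr8:61927937-61928086 (plus strand, Ddx60), chr14:59341331-59341480 (minus strand, Phf11b) and chr7:140955962-140956111 (minus strand, Ifitm2) of GRCm38.p6.

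Members with the core ran from -2.23 to 6.19 on the log2(RPKM + 1) difference and those without it from -0.88 to 6.21, so they overlapped. Of the 14 members with it, 10 were called higher, 1 (Ifitm3) lower, 2 (Ifitm2 and Eif2ak2) lay within 2-fold and 1 (Phf11b) was below the filter, with a median log2(RPKM + 1) difference of 3.89. Of the 16 without it, 9 were called higher, 6 lay within 2-fold and 1 (Ifitm1) was below the filter, with a median of 2.09. Both medians take in the member below the filter. Of the 10 with no promoter in the table, 8 were called higher. The shares over all genes past the filter were 14.8% higher and 15.9% lower. Most members called higher had under 1 RPKM in the Rnf8-complemented library, which favours a call. Ifitm2 and Ifitm3 held the core and were not higher, and no match says only that these letters are not in this window.

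The genes upstream of the effectors were taken from a list by role. Beside the counts by role, the shares over all genes past the filter were 14.8% called higher and 15.9% lower. Interferon genes were barely read. Of 19 in the table, 0 reads were listed for 15 in the Rnf8-null library and for 11 in the Rnf8-complemented one, and none passed the filter. Ifnb1, the first interferon made by most cells, had 6 reads against 2 (ratio 2.55, interval 0.455 to 25.8), Ifne 2 against 11, Ifnl2 2 against 17 and Ifnl3 0 against 17. Ifnl2 and Ifnl3 are near-identical and can share reads. No interferon gene reached 1 RPKM in either library.

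The receptors of type I interferon, Ifnar1 and Ifnar2, were lower in the Rnf8-null library, at 6.85 against 13.4 and 16.9 against 26.0 RPKM, but within 2-fold on the log2(RPKM + 1) scale. Of the 6 receptor genes, 2 were called higher. Ifnlr1, the specific chain for lambda interferons, stood at 16.8 against 0.713 RPKM (23.5-fold, interval 19.9 to 28.1), and Ifngr1 at 51.6 against 17.4 RPKM (2.96-fold, 2.81 to 3.13). None was called lower.

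Among the kinases and STAT genes, Stat2 was called higher, at 26.5 against 2.77 RPKM (9.54-fold, interval 8.80 to 10.3). Stat3 stood at 86.0 against 44.9 RPKM and Jak2 at 12.96 against 7.49 RPKM, both within 2-fold on the log2(RPKM + 1) scale. Irf9, a partner of Stat2, stood at 14.1 against 1.03 RPKM (13.7-fold, 12.3 to 15.4).

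Among the interferon regulatory factor genes, Irf7 and Irf9 were called higher. Irf7 had 15518 reads against 29, and Irf1 stood at 34.1 against 19.9 RPKM. Of 12 sensors and adaptors past the filter, 7 were called higher and 1, Aim2, lower. The higher ones included the nucleic acid sensor Zbp1 at 39.8 against 0.105 RPKM, Tmem173, which encodes Sting, at 29.8 against 1.31 RPKM, Dhx58 at 15.8 against 0.429 RPKM and Ifih1, which encodes Mda5, with 2883 reads against 6. Of 7 inhibitors past the filter, 2 were called higher and 1 lower, against 14.8% and 15.9% of all genes past the filter. Ptpn6 stood at 11.98 against 0.0744 RPKM, Socs2 at 9.16 against 1.94 RPKM and Socs3 at 9.45 against 60.3 RPKM. Socs1, the inhibitor closest to interferon receptors, was low in both libraries at 0.541 against 1.41 RPKM.

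**Figure D4:**
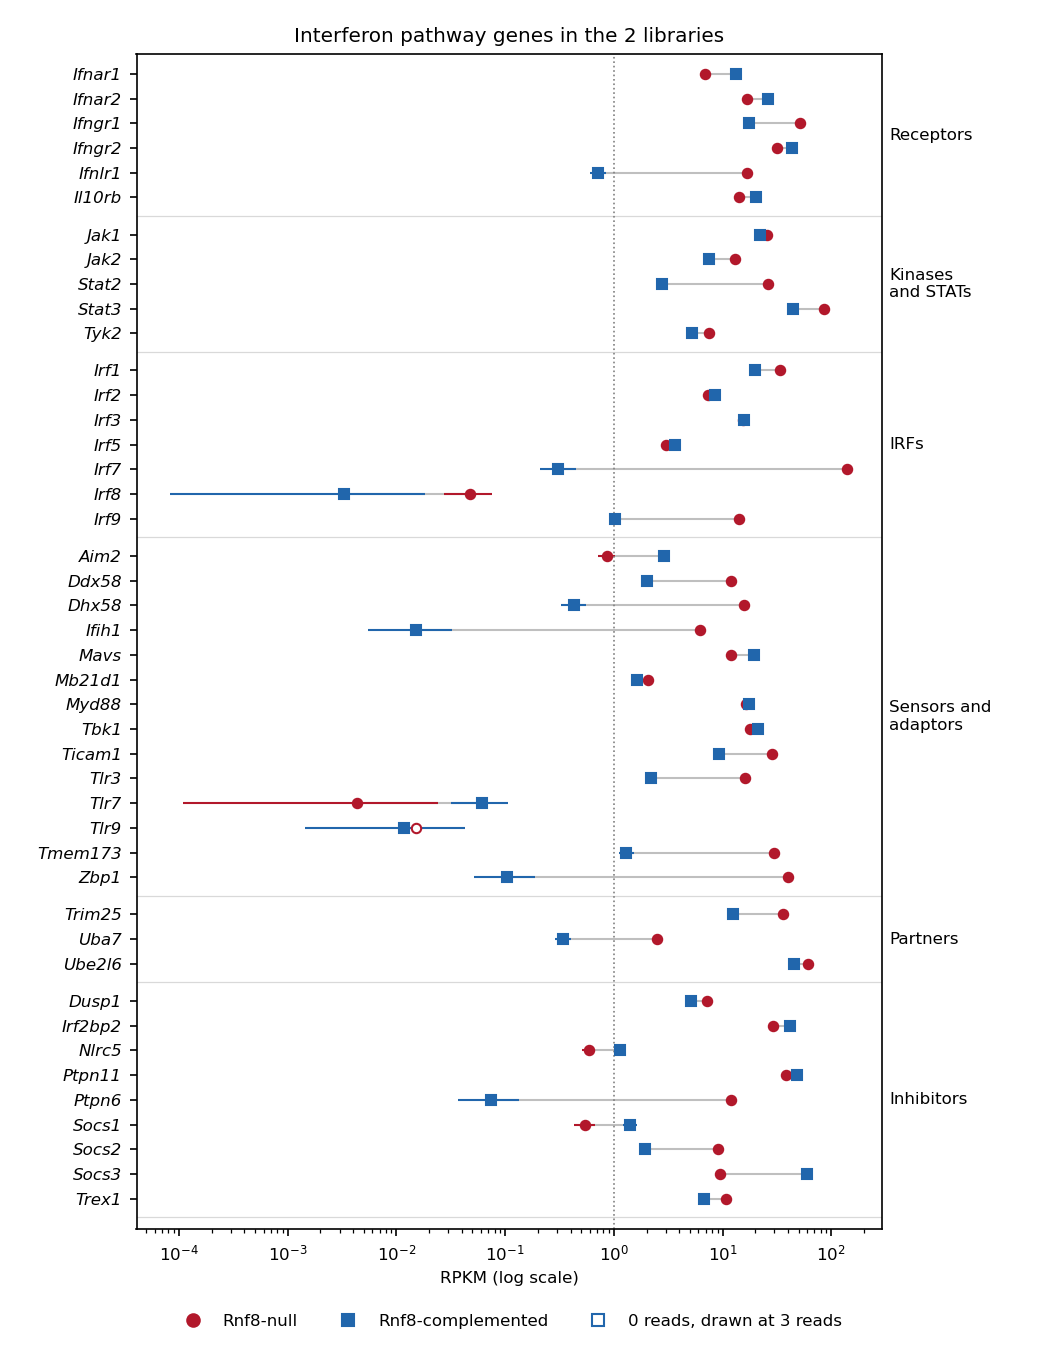
RPKM (log axis) of interferon pathway genes in the Rnf8-null (circles) and Rnf8-complemented (squares) libraries by role, with exact 95% Poisson intervals. Genes with 0 reads in both libraries and some others are not drawn, and an open symbol marks 0 reads in a library, drawn at 3 reads. Irf7, Ifih1, Zbp1 and Ptpn6 show wide gaps, while most receptors, Irf3, Tbk1 and Myd88 lie close together.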

How the data were processed

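The authors deposited 1 table with raw read counts per gene symbol and RPKM for the same libraries, with 0 columns of other samples. Deposited counts divided by RPKM and library total gave a whole-number length for each of 20176 genes, to within 1.35e-08 bases. The submitters' processing notes list bedtools, DESeq2, SAMtools 0.1.18, STAR 2.4.0f1 and the build mm10 (GRCm38), with no role. The sources used here do not give the counting tool or gene annotation.

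Ratios are of reads per library total, with exact Clopper-Pearson 95% intervals, and levels have exact Poisson 95% intervals. Reads without molecular identifiers are not independent, so these are too narrow. A library at 0 reads was set to 3 reads for a lower bound, which gave a median of 3.005 for the 40 members. The alternatives used edgeR 4.0.16 and DESeq2 1.42.0 in R 4.3.3 for scaling factors only, and other steps Python 3.11.15 with scipy 1.17.1. The ratio and its interval were tested on simulated data. The members, lists and classes were chosen with earlier results of these data known. All 40 members are named. For each pathway role and for relatives, up to 4 genes with the largest difference are named, with others that complete a count or, chosen after their values were seen, that give relatives of a class (the Oas1 and Ifitm relatives, Ube2l6, Irf3, Tbk1 and Myd88). Some genes that the rule takes were left out of the text and figures.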

Additional observations from a re-analysis of the deposited data

How the results depend on the processing

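No paired analysis was possible because each form had 1 library, and no replicate could be left out for the same reason. The split of calls over all genes was 1866 higher and 2010 lower as reported, 2181 and 1551 with TMM scaling, 2204 and 1538 with median-of-ratios scaling, and 2010 and 1744 with upper-quartile scaling. These scalings moved the median of all genes from -0.17 to 0.03, 0.04 and -0.07, and each called 29 members higher and 1 lower, adding Isg20 and Adar. Unless stated, medians here cover members past the filter. As reported, the members' median was then 3.16. Class medians were ISGylation 5.93, Ifit 4.28, Oas 4.67, Ifitm -1.33 and Mx 2.64. They were 3.15 for Parp, 2.64 for release and nucleotides, 0.97 for double-stranded RNA and 3.23 for other members. A class median counted as moved when its shift exceeded the median half-width of its members' log2 ratio intervals, with at least 3 reads per library. With TMM scaling those that moved were Ifitm -1.11, Parp 3.29, release and nucleotides 2.75 and double-stranded RNA 1.19. With median-of-ratios scaling they were -1.10, 3.29, 2.76 and 1.20, and with upper-quartile scaling Ifitm was -1.22 and double-stranded RNA 1.08.

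With a pseudocount of 0.1 RPKM the members' median was 4.29, with 2 called lower (Ifitm3 and Parp12) and Adar called higher. The medians were ISGylation 6.47, Ifit 6.13, Oas 7.71, Mx 5.29, Parp 4.005, release and nucleotides 4.63 and other members 3.69. With 5 RPKM the members' median was 1.70, with 1218 genes called higher and 1015 lower. Oas1c, Mx1 and Ddx60 were then no longer called, and the medians were ISGylation 4.11, Ifit 2.41, Oas 2.57, Parp 1.49, release and nucleotides 1.12, double-stranded RNA 0.57 and other members 2.20.

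Without the filter the Ifitm median was -0.43 and that of the other members 2.80. At a mean of at least 5 RPKM 1273 genes were called lower, and the medians were 3.67 for the members, 1.96 for Parp, 2.30 for release and nucleotides and 0.82 for double-stranded RNA. A 4-fold rule called 980 genes higher and 637 lower, and a 1.5-fold rule called 3713 genes and 2 members lower. Chosen after seeing the data, members with at least 1 RPKM in the Rnf8-complemented library gave 6 called higher and a median of 0.77, and leaving out members with shared windows gave 0 called lower. The pseudocount and scaling alternatives gave 200 values of single members. A pseudocount cannot change the sign of a difference. The scaling factors (0.921 to 1.09) are too close to 1 to reverse a called one, so the signs are no check. Among members past the filter, 11 values changed their call, all named above. Ifitm1 (-1.16) and Phf11b (1.43) passed the limit at a pseudocount of 0.1 RPKM but are below the filter and not in that count. Depth limits Ifitm1, Phf11b and the interferon genes, which had few reads.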
